A study of Homo sapiens with 7 samples.

Results

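Genes of the Notch pathway and of the secretory lineage were examined in PIXUL-ChIP-seq of HCT116 cells. They were the receptors NOTCH1 and NOTCH2, the ligands DLL1, DLL4, JAG1 and JAG2, the target HES1 and the secretory lineage factors ATOH1, SPDEF and GFI1. These 10 genes were chosen by name from 20162 protein-coding genes of GENCODE on hg19. All intervals of 6 peak lists that touched a gene body or the 10 kb on either side of it were taken, which gave 113 of 240889 intervals. HCT116 is a colorectal carcinoma line, and no treatment is named in the labels. Cells were grown to 200000 per well of a 96-well plate, crosslinked and sonicated for 6 min in 100 µl on the PIXUL instrument, which shears all wells of a plate with ultrasound. Each mark (H3K4me1, H3K4me3, H3K9Ac, H3K27me3, H3K36me3 and CTCF) was immunoprecipitated from a single well and has 1 library, so no value below has a replicate check. A further library, H3K27Ac, was not analysed here.

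Notch receptors are cleaved when a ligand on a neighboring cell binds them, and the released intracellular domain joins the DNA-binding protein RBPJ to switch on targets such as HES1. In the intestinal epithelium, HES1 represses ATOH1, and cells that escape this repression take a secretory fate (goblet, Paneth or enteroendocrine). H3K4me3 and H3K9Ac mark active or poised promoters, H3K4me1 marks promoter flanks and enhancers, H3K36me3 is laid down over transcribed gene bodies, and H3K27me3 is the mark of Polycomb repression. CTCF, a zinc-finger protein, occupies insulators and loop anchors.

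The promoter sequences of the genes on which the results turn are shown first, as the 250 bases before the transcription start site (TSS) read from the hg19 genome on the strand of the gene. CpG dinucleotides are in capitals in the sequences of NOTCH1, DLL4 and ATOH1, which held the highest H3K4me3 fold enrichment of the group and the pair of promoters with H3K27me3.
NOTCH1, hg19 chr9:139440501-139440750, minus strand: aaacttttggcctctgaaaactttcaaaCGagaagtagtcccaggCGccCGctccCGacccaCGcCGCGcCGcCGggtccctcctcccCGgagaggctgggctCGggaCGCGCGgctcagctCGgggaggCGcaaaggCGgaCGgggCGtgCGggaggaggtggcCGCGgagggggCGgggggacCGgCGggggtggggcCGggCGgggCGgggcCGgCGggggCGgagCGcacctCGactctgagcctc
DLL4, hg19 chr15:41221288-41221537, plus strand: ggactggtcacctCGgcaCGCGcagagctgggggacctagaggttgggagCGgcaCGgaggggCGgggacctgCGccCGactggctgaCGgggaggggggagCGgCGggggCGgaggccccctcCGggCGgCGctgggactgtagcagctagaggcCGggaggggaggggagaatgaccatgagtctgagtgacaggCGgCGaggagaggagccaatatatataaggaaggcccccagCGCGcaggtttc
ATOH1, hg19 chr4:94749654-94749903, plus strand: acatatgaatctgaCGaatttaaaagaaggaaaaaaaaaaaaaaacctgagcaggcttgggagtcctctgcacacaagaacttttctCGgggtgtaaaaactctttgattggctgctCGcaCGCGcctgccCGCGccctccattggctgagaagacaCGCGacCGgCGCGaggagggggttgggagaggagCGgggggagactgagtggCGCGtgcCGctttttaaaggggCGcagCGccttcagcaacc
For HES1, the direct target, and SPDEF, the gene with no interval at its TSS, the capitals mark TGGGAA, the core of the RBPJ motif, which was searched on both strands.
HES1, hg19 chr3:193853687-193853936, plus strand: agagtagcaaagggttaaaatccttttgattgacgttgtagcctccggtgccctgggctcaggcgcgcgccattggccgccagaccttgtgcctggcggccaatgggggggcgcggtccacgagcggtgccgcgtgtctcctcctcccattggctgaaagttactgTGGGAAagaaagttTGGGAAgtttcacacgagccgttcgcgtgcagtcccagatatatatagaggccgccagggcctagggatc
SPDEF, hg19 chr6:34524107-34524356, minus strand: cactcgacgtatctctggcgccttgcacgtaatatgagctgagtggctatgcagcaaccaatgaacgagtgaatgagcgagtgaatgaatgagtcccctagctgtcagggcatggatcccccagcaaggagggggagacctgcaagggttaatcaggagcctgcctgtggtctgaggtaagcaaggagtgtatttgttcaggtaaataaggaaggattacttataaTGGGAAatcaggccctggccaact

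From 250 bases before to 50 bases after the TSS, HES1 held 2 such cores, which began 84 and 70 bases before the TSS. SPDEF held 1 core, 24 bases before the TSS, and the other 8 genes held 0. At least 1 core was present in 22.2% of all coding promoters of this length, and 2 or more in 3.12%. These matches describe letters and not binding. The HES N-box CACNAG, a site of HES repressors, was present in 6 of the 10 promoters and in 36.1% of all. E-boxes (CANNTG, bound by ATOH1 and its relatives) were present in 4 of the 10 and in 63.9% of all promoters. The letters TATAAA were found in 0 of the 10 and in 9.8% of all. The N-box and the E-box can overlap each other, and each was counted on both strands. JAG2 and NOTCH1 had the most CpG dinucleotides, with 46 and 42 in 300 bases, and SPDEF had the fewest, with 8. The median was 29 over coding promoters with an H3K4me3 interval past the limits of the methods and 7 over those without. NOTCH2 (33), DLL4 (27), GFI1 (27) and JAG1 (24) lay above the median of 23 over all coding promoters, while ATOH1 (22), HES1 (21) and DLL1 (18) lay below it.

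The lists contain every interval at the cutoff of the caller, including intervals that fail the limits the methods set on the q-value and the fold enrichment, so both kinds are given. Of the 113 intervals, 60 passed the limits (for H3K4me1 and H3K27me3 a fold enrichment above 2 with q below 1e-03, and for the others a fold enrichment above 5 with q below 1e-10). Marker genes of colorectal epithelium and of other cell types were read in the H3K4me3 list. The other lists were not checked in this way. H3K4me3 passed the limits within 1 kb of the TSS of 6 of 8 epithelial markers (EPCAM, CDH1, KRT8, KRT18, CDX2 and HNF4A, not KRT20 and VIL1). The share over all coding genes was 59.1%. The weakest of the 6 was HNF4A, with a fold enrichment of 7.92. H3K4me3 passed at 0 of 7 annotated markers of blood, mesenchymal, muscle, neural crest and liver cells. The interval names in the H3K27me3 list do not carry the name of the cell line, unlike those of the other 5 lists. The labels put this library with HCT116 cells, and each H3K27me3 value below rests on that label. Sequencing depth is unknown for these lists, and fold enrichment was therefore compared within a mark and not between marks.

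Within 1 kb of the TSS, 9 of the 10 genes had H3K4me3 past the limits, and SPDEF was the exception. Across all coding genes the share was 59.1%. H3K9Ac passed at 8 genes, beside 58.5% of all, and H3K4me1 at 9, beside 49.1%. CTCF passed at 4 genes (DLL4, JAG1, JAG2 and GFI1), beside 13.6%. H3K27me3 passed at DLL4 and ATOH1, that is at 2 genes, beside 1.22%. H3K36me3 passed at 0 genes, beside 0.298% of all, and 90 of 40010 H3K36me3 intervals passed at all. Both H3K4me3 and H3K27me3 passed at the TSS of 2 genes, again DLL4 and ATOH1, beside 0.382% or 77 of all coding genes. The genes are few and were chosen by name, and no share was tested.

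**Figure D1:**
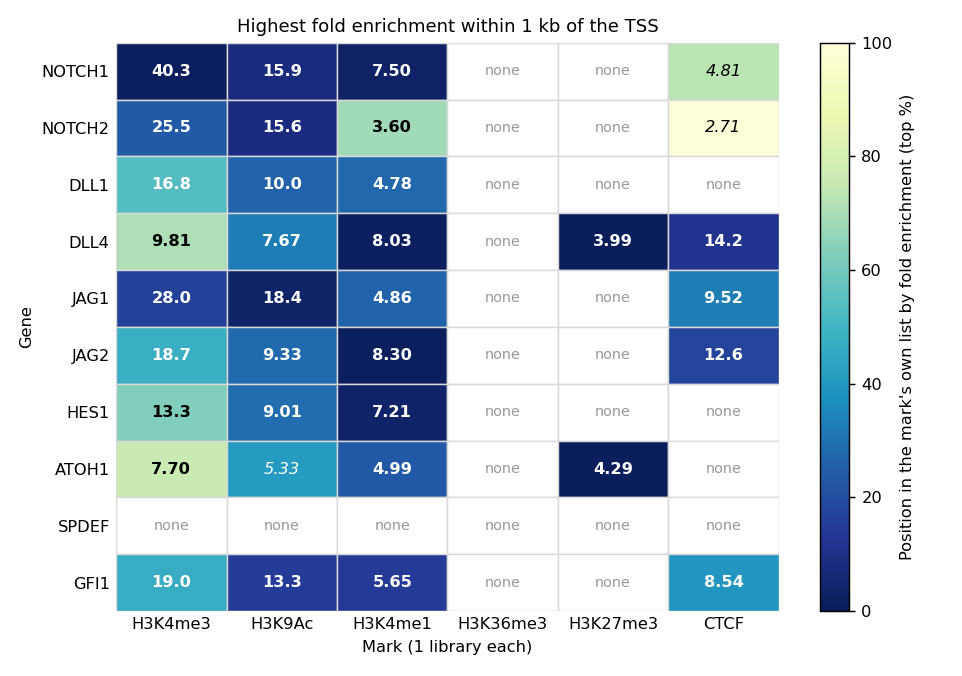
Highest fold enrichment of an interval within 1 kb of the TSS, for each gene (y axis) and mark (x axis), with the color giving the position in the mark's own list in percent from the top. Bold values passed the limits and italic values did not. NOTCH1 holds the highest H3K4me3 value (40.3), SPDEF has no interval, and H3K27me3 is present at DLL4 (3.99) and ATOH1 (4.29).

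Over the gene and the 10 kb around it, 9 genes had an H3K4me3 interval (72.9% of all coding genes), 10 had H3K9Ac (79.1%), 10 had H3K4me1 (81.3%), 6 had H3K36me3 (65.9%), 4 had H3K27me3 (30.0%) and 7 had CTCF (78.9%). Past the limits, the numbers were 9 for H3K4me3 (69.1%), 8 for H3K9Ac (68.3%), 10 for H3K4me1 (71.9%), 0 for H3K36me3 (0.789%), 2 for H3K27me3 (3.94%) and 7 for CTCF (62.4%). In this wide window most counts lay close to the share of all genes. NOTCH2 had the most intervals (27, of which 6 passed), followed by NOTCH1 (21, 10), DLL1 (15, 10), DLL4 (11, 10), JAG2 and HES1 (10 each, of which 4 and 5 passed), JAG1 (7, 5) and ATOH1, SPDEF and GFI1 (4 each, of which 3, 3 and 4 passed). Longer genes have longer windows, from 22212 bp for ATOH1 to 209191 bp for NOTCH2, so these numbers are not densities.

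**Figure D2:**
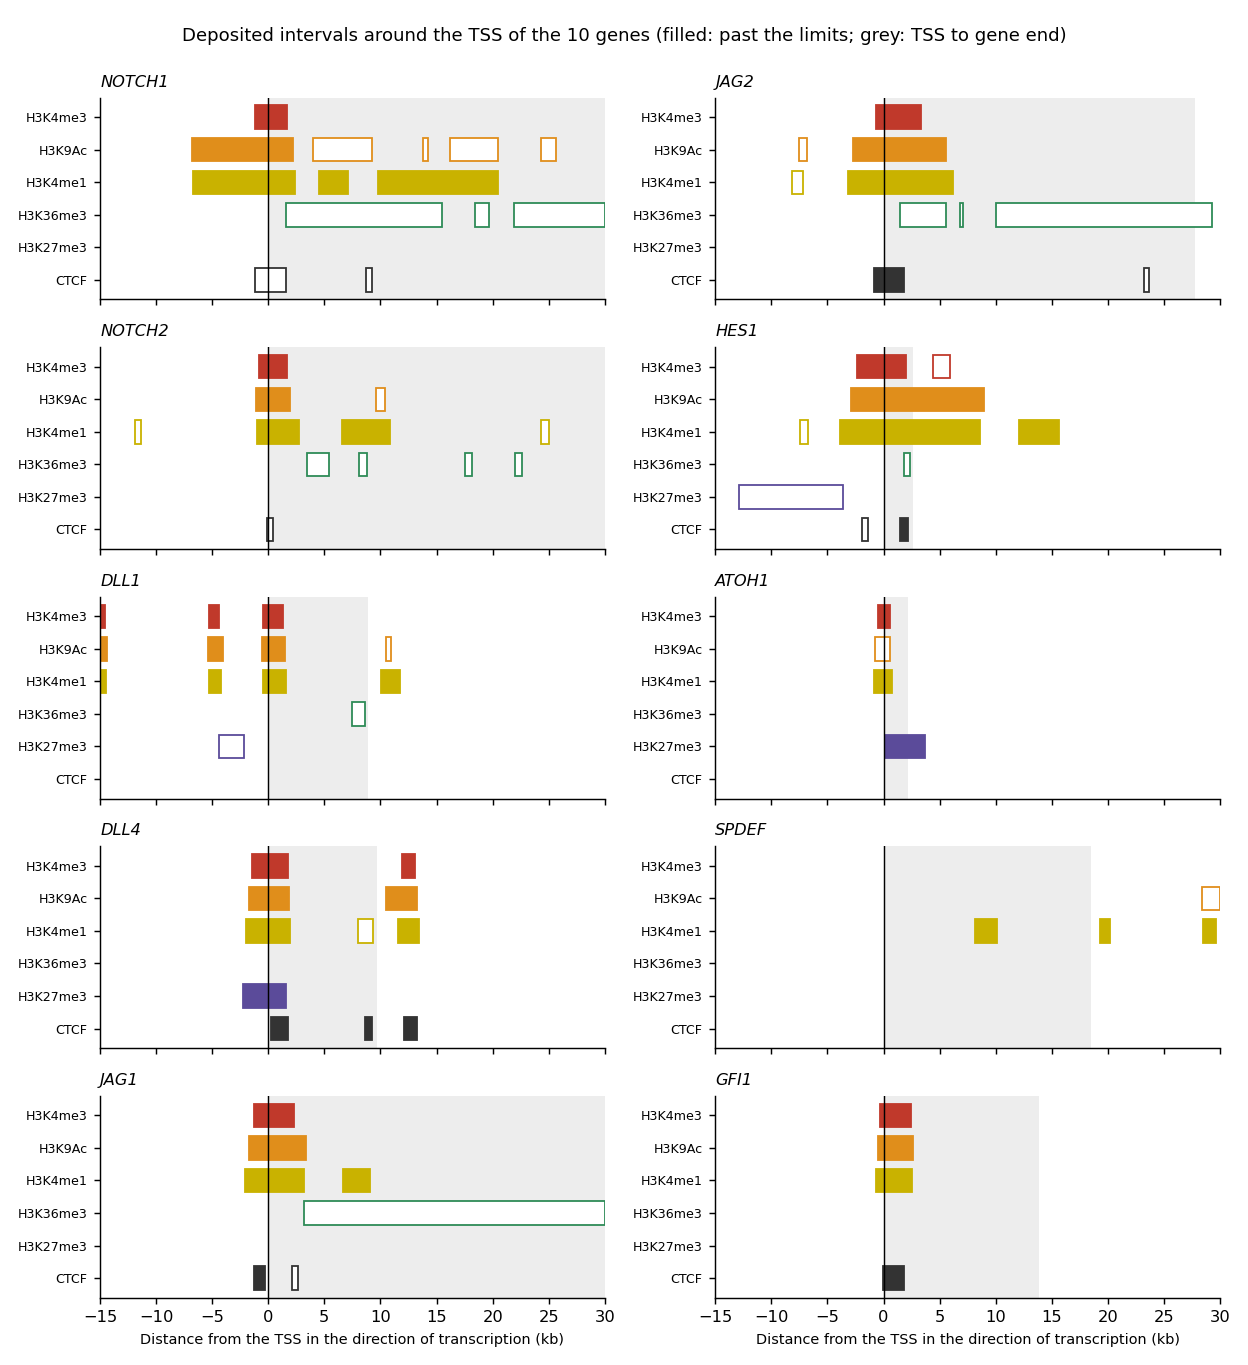
Position of the intervals of the 6 marks (rows of each panel) by distance from the TSS in kb, positive in the direction of transcription, for the 10 genes. Filled boxes passed the limits and open boxes did not, and the grey field runs from the TSS to the end of the gene, with parts beyond the axis not drawn. Intervals of H3K4me3, H3K9Ac and H3K4me1 lie over the TSS of 9 genes, and SPDEF has none there.

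NOTCH1 (hg19 chr9:139388885-139440500, minus strand, 34 exons), a receptor of the pathway, had the strongest H3K4me3 interval of the group. It ran from 1181 bp upstream to 1691 bp downstream of the TSS over exon 1 and intron 1, with a fold enrichment of 40.3 (−log10 q-value 148). Of 10456 H3K4me3 intervals past the limits at coding TSSs, 1.94% had a higher fold, and the median was 22.4. H3K9Ac over the same TSS was 9019 bp wide with a fold enrichment of 15.9 and reached 6827 bp upstream. H3K4me1 was about as wide (9105 bp) with a fold enrichment of 7.50. Both were wide for promoter intervals of their marks, of which 3.78% and 3.97% were wider. The TSSs of the antisense RNA NALT1 and of MIR4674 lie inside all 3 intervals, so they cannot be assigned to NOTCH1 alone. A CTCF interval of 2774 bp over this TSS had a fold enrichment of 4.81 and did not pass.

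The intron between exons 2 and 3 of NOTCH1 held the highest H3K4me1 value of the group. This interval extended for 10687 bp, from 9796 to 20482 bp downstream of the TSS, entirely in intronic sequence, with a fold enrichment of 9.09, which placed it in the top 0.78% of the H3K4me1 list. A shorter H3K4me1 interval lay 4491 to 7100 bp downstream (fold enrichment 6.33). H3K9Ac overlapped these, with fold enrichments of 4.92 (3986 to 9218 bp), 3.19 (13826 to 14228 bp) and 4.21 (16218 to 20501 bp), but none of the 3 intervals passed the limits. No H3K4me3 interval was called in this intron. H3K36me3 covered 86.9% of the gene body, which was more than in 93.1% of coding genes, in 3 intervals that ran from 1541 to 15476, from 18465 to 19710 and from 21936 to 51858 bp. The breaks between them lay in or just beyond the H3K4me1 interval of the intron. The last of them spanned exons 3 to 34 with a fold enrichment of 4.27, in the top 3.22% of its list, and did not pass the limits.

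Beyond the 3′ end, the NOTCH1 window reached the promoter of SEC16A and C9orf163. H3K4me3 (fold enrichment 29.7), H3K9Ac (20.4) and H3K4me1 (5.98) lay over those TSSs, 60062 to 65056 bp from the NOTCH1 TSS, and belong to that promoter by position. Past the limits, CTCF had 2 intervals in this stretch, with fold enrichments of 15.3 (56876 bp from the TSS) and 11.6 (60433 bp). They lay between the NOTCH1 gene and the SEC16A TSS.

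NOTCH2 (hg19 chr1:120454176-120643366, minus strand, canonical TSS at 120612276) is the second receptor of the group, and its values are uncertain. H3K4me3 at its TSS had a fold enrichment of 25.5 over 2444 bp, H3K9Ac 15.6 over 2974 bp and H3K4me1 3.60 over 3752 bp. A second H3K4me1 interval past the limits lay in its first intron, 6568 to 10805 bp downstream, with 4.10. Of its 27 intervals, 18 had a near-identical copy elsewhere in hg19, at an identity of 97.5% to 99.8%. All copies lay in the same stretch of chromosome 1, over or upstream of the gene models of the NOTCH2NL family. The models of NOTCH2NLA, NOTCH2NLB, NOTCH2NLC and NOTCH2NLR overlap there, so a value at the copy cannot be assigned to a single member of the family. For the other 9 genes, 0 intervals had such a copy, counted where 50% or more of the interval aligned with 95% or more of identical bases. The copy of the NOTCH2 promoter interval, hg19 chr1:145208290-145210772, carried an H3K4me3 interval of its own with a fold enrichment of 33.3, higher than at NOTCH2. For H3K9Ac the value at the copy was 20.1 and for H3K4me1 3.88. In all, 15 of the 18 copies held an interval of the same mark, and reads of near-identical loci cannot be told apart from these lists.

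The copied intervals of NOTCH2 lay between 11899 bp upstream and 73864 bp downstream of the TSS, and the 9 without a copy lay from 78718 bp downstream on. The latter were 7 H3K36me3 intervals and the 2 CTCF intervals that passed, over exon 7 (fold enrichment 13.3) and over exons 16 and 17 (8.13). The promoter intervals also stood apart in the statistic of the caller. H3K4me3 at NOTCH2 had a −log10 q-value of 143.3. The median was 85.3 over the 1390 intervals of the whole H3K4me3 list, at a TSS or not, within 5% of its fold enrichment. Of these, 0 had a higher value. H3K9Ac had a −log10 q-value of 74.8 against a median of 45.0 over 1232 such intervals of its own list, of which 1 was higher. The other 8 genes with H3K4me3 had values near the median for their fold enrichment, for example 148.1 beside 151 at NOTCH1 and 90.6 beside 96.4 at JAG1. Whether the copies have a part in this was not tested. NOTCH2 H3K36me3 covered 30.6% of the body in 15 intervals, and the 4 longest of these lay over exons 6 to 11, 14 to 17, 18 to 22 and 23 to 34.

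**Figure D3:**
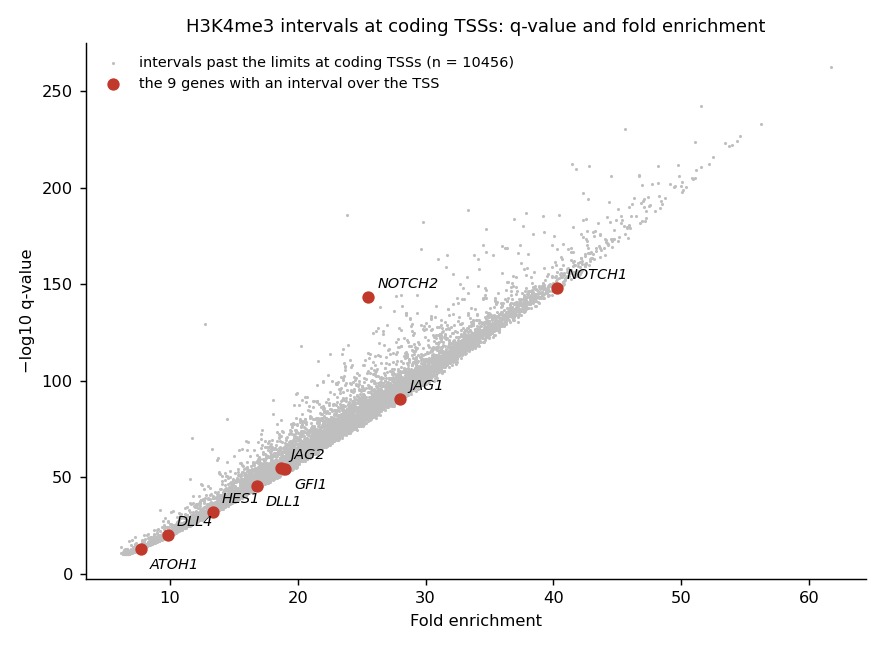
Fold enrichment (x axis) against the −log10 q-value (y axis) of H3K4me3 intervals at coding TSSs, with all 10456 that passed the limits in grey and the 9 genes with an interval over the TSS in red. NOTCH2 lies above the band of intervals, at 143.3, and the other 8 genes lie along it.

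Among the ligands, JAG1 (hg19 chr20:10618332-10654647, minus strand) had the highest H3K4me3 and H3K9Ac at its TSS. H3K4me3 had a fold enrichment of 28.0 over 3539 bp, and H3K9Ac had 18.4 over 5058 bp, which 10.7% of promoter H3K9Ac intervals exceeded. H3K4me1 over the TSS had a fold enrichment of 4.86, near the promoter median of 4.65. The lncRNA ENSG00000270792 starts inside these intervals. A second H3K4me1 interval lay in an intron 6655 to 9060 bp downstream (fold enrichment 4.03). JAG1 also had the longest interval of the group, an H3K36me3 interval of 34025 bp that ran without a break from 3145 bp downstream of the TSS to past the 3′ end. It covered exons 3 to 26 and 91.3% of the body, with a fold enrichment below the limit of 5. CTCF lay just upstream of the JAG1 TSS, from 1292 to 311 bp before it, and passed the limits with 9.52, while a CTCF interval 2115 to 2644 bp downstream (4.99, −log10 q-value 5.29) did not pass.

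JAG2 (hg19 chr14:105607319-105635161, minus strand), the other ligand of the Jagged class, had wider promoter intervals than JAG1, with lower H3K4me3 and H3K9Ac and higher H3K4me1 and CTCF. Its H3K4me3 had a fold enrichment of 18.7, which 67.9% of promoter intervals exceeded, while 2.84% were wider than its 4035 bp. H3K9Ac extended for 8260 bp with a fold enrichment of 9.33. H3K4me1 extended for 9334 bp with a fold enrichment of 8.30, in the top 1.46% of its list. H3K36me3 covered 79.7% of the JAG2 body in 3 intervals, the longest of which (19273 bp) ran over exons 3 to 26. CTCF over the JAG2 TSS was 2687 bp wide with a fold enrichment of 12.6, and 5.57% of CTCF intervals at coding TSSs were wider. The pair of weak intervals 6813 to 8179 bp upstream (H3K9Ac and H3K4me1) did not pass and lay next to NUDT14.

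DLL1 (hg19 chr6:170591294-170615653, minus strand, canonical TSS at 170600166), a ligand of the Delta class, had H3K4me3, H3K9Ac and H3K4me1 at 3 places. At the canonical TSS the fold enrichments were 16.8, 10.03 and 4.78, and a FAM120B transcript starts there as well. A region 4075 to 5338 bp upstream had 8.96, 9.99 and 6.88 for the same marks, so H3K4me1 was higher there than at the TSS and H3K4me3 lower. The third region, 14425 to 18070 bp upstream, had 27, 17.2 and 4.13, the highest H3K4me3 of the 3. It contains the TSS of a longer DLL1 transcript and a TSS of FAM120B, which is transcribed from the other strand, and a further FAM120B transcript starts inside the H3K9Ac and H3K4me1 intervals of the middle region. A weak H3K27me3 interval (fold enrichment 3.45, not past the limits) lay 2191 to 4411 bp upstream of the canonical TSS, inside the annotated DLL1 gene. It lay between that TSS and the middle region, and overlapped the H3K4me3 of the latter by 25 bp. H3K4me1 10063 to 11773 bp downstream, past the end of the gene, had a fold enrichment of 4.77. H3K36me3 covered 4.69% of the annotated gene of 24360 bp, of which 15487 bp lie upstream of the canonical TSS. The median over all coding genes was 4.83%. DLL1 had no CTCF interval.

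DLL4 (hg19 chr15:41221538-41231271, plus strand), the Delta ligand best known from blood vessels, had 5 of the 6 marks past the limits at its TSS. No more than 21 of 20162 coding genes (0.104%) had the same combination. H3K4me3 had a fold enrichment of 9.81 over 3215 bp, and 94.6% of promoter intervals had a higher fold while 8.29% were wider. H3K9Ac had a fold enrichment of 7.67, also low for a promoter, and H3K4me1 had 8.03, in the top 1.85% of its list. H3K27me3 ran from 2230 bp upstream to 1599 bp downstream of the DLL4 TSS with a fold enrichment of 3.99 (−log10 q-value 3.37). The H3K4me3 interval overlapped 80.2% of it, and H3K4me1 overlapped 94.6%. In a single population these overlaps cannot tell apart cells that carry both marks from a mixture of cells. No H3K36me3 interval lay in the DLL4 window.

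A second region, past the 3′ end of DLL4 and 10530 bp or more downstream of its TSS, had higher H3K4me3 than the promoter. Its H3K4me3 interval (11901 to 13047 bp, 1147 bp wide) had a fold enrichment of 15.3, beside 9.81 over 3215 bp at the TSS. H3K9Ac was 13.5 there beside 7.67, and H3K4me1 was 6.95 beside 8.03. CTCF at this place reached a fold enrichment of 25.1 (−log10 q-value 79.3), the highest CTCF value of the group and in the top 0.736% of its list. No annotated TSS lies inside these intervals, and the nearest, of the pseudogene ISCA1P4, was 6482 bp from the H3K4me3 interval. CTCF also passed just inside the gene (14.2, from 230 to 1768 bp) and over the last exon, exon 11 (9.99). H3K27me3 did not reach the downstream region and ended 10301 bp before its H3K4me3 interval.

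HES1 (hg19 chr3:193853937-193856521, plus strand), the repressor that Notch activates, lay inside the widest promoter intervals of the group. H3K9Ac extended for 11856 bp and H3K4me1 for 12480 bp, and each covered the whole gene of 2585 bp. Of promoter intervals, 1.88% and 1.92% were wider. H3K4me3 was 4358 bp wide, and 1.98% were wider. The fold enrichment was low for promoters in H3K4me3 (13.3, with 87.0% of promoter intervals higher) and H3K9Ac (9.01, 85.0% higher). For H3K4me1 it was high (7.21, 6.65% higher). Fold enrichment is 1 value per interval, and the median promoter widths were 2003 bp for H3K4me3 and 3006 bp for H3K9Ac. Whether width has a part in the low fold was not tested. The lncRNA ENSG00000289385 starts inside the intervals of these marks at HES1 as well. A further H3K4me1 interval lay 12107 to 15605 bp downstream (fold enrichment 5.64), and a H3K4me3 interval 4417 to 5911 bp downstream (5.85) did not pass.

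H3K36me3 at HES1 was a single interval of 569 bp in the last exon, exon 4, with a fold enrichment of 4.32, the highest H3K36me3 value of the 10 genes by a small margin over the 4.27 of NOTCH1. CTCF passed in that exon as well (11.99, from 1463 to 2213 bp). A broad H3K27me3 interval of 9284 bp with a fold enrichment of 3.08, which did not pass, lay upstream of HES1 over the TSS of LINC02924. It ended 3590 bp before the HES1 TSS, 1236 bp short of the H3K4me3 interval. It overlapped the wide H3K4me1 interval of HES1 by 334 bp. It also contained an H3K4me1 interval of 711 bp, 7450 to 6740 bp upstream of the TSS, that did not pass.

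**Figure D4:**
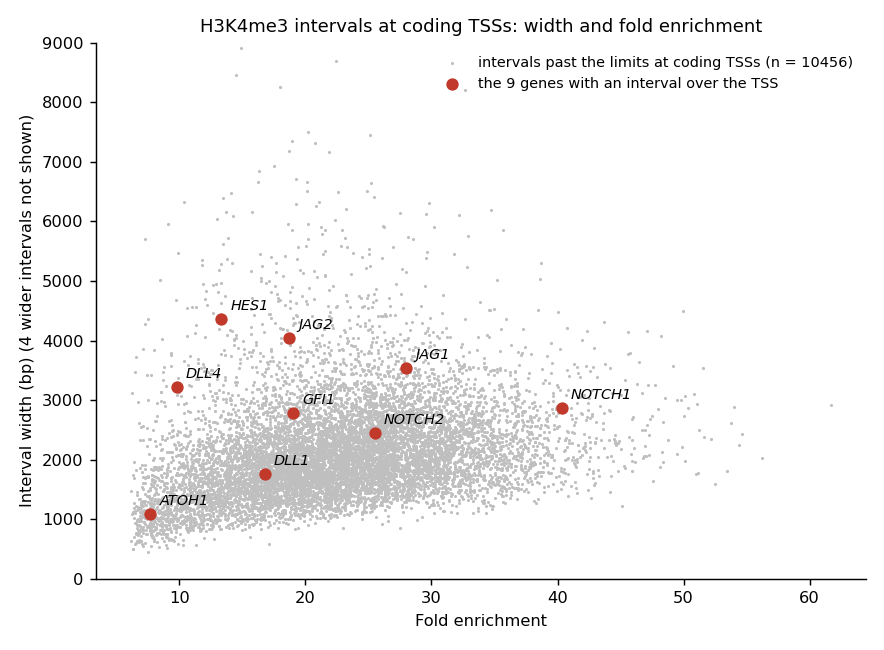
Fold enrichment (x axis) against interval width in bp (y axis) of H3K4me3 intervals at coding TSSs, in grey, with the 9 genes in red. NOTCH1 is far to the right (40.3), HES1 (4358 bp) and JAG2 (4035 bp) are wide at a lower fold, and ATOH1 is narrow and low (1094 bp, 7.70).

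Of the secretory lineage factors, ATOH1 (hg19 chr4:94749904-94752115, plus strand, 1 exon), which starts the secretory program, had the weakest H3K4me3 of the 9 marked promoters. Its fold enrichment was 7.70 over 1094 bp, and 98.4% of promoter intervals had a higher fold and 95.1% were wider. H3K9Ac (5.33, −log10 q-value 6.998) did not pass. H3K4me1 had a fold enrichment of 4.99, above the promoter median. H3K27me3 began 160 bp downstream of the TSS, ran to 3719 bp and covered 92.8% of the gene. Its fold enrichment was 4.29, in the top 0.394% of its list. Its −log10 q-value was 3.845, not far past the limit of q below 1e-03. H3K4me3 and H3K27me3 met over 402 bp at the start of the ATOH1 gene. The combination of H3K4me3, H3K4me1 and H3K27me3 past the limits at the TSS, with no other mark past them, was found at 8 coding genes (0.0397%), ATOH1 among them. H3K9Ac at ATOH1 was called and failed on the q-value alone. Neither H3K36me3 nor CTCF was called in the window.

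H3K27me3 at ATOH1 and DLL4 was narrow beside other promoters that carry this mark. Of 223 H3K27me3 intervals past the limits at coding TSSs, 83.4% were wider than the 3560 bp of ATOH1 and 81.2% were wider than the 3830 bp of DLL4, and the median width was 10220 bp. In fold enrichment DLL4 lay near the median of 4.0, with 52.9% of those intervals above it, and ATOH1 lay higher, with 26.0% above it.

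GFI1 (hg19 chr1:92938600-92952482, minus strand), a repressor that acts downstream of ATOH1, had 1 interval each of H3K4me3 (19.01), H3K9Ac (13.3), H3K4me1 (5.65) and CTCF (8.54), and all 4 passed. They began 17 to 651 bp upstream of the GFI1 TSS and ended 1816 to 2659 bp downstream, in the first intron. These values were ordinary for promoters, with 66.4%, 45.9%, 22.5% and 79.0% of promoter intervals of the same mark at a higher fold. The rest of the gene and its surroundings held no interval, H3K36me3 included.

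SPDEF (hg19 chr6:34505579-34524110, minus strand), an ETS factor of goblet cell maturation, had 0 intervals of any mark within 1 kb of its TSS, and 6828 or 33.9% of coding genes had none past the limits there. Its 3 H3K4me1 intervals passed the limits, with fold enrichments of 4.50 (8155 to 10144 bp downstream, intronic), 4.41 (19274 to 20175 bp) and 3.79 (28516 to 29655 bp). The latter pair lay past the 3′ end of the gene. H3K9Ac overlapped the farthest of them with a fold enrichment of 4.63 and did not pass. No H3K27me3 was called at SPDEF, so that neither the active nor the Polycomb mark covered this promoter at the depth of these lists.

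H3K36me3 set NOTCH1, JAG1 and JAG2 apart from the rest in body coverage, with 86.9%, 91.3% and 79.7%. NOTCH2 had 30.6%, HES1 22%, DLL1 4.69% and DLL4, ATOH1, SPDEF and GFI1 0%. Over all coding genes the median was 4.83%. These shares are of the annotated gene, which at DLL1 and NOTCH2 begins 15487 and 31090 bp upstream of the canonical TSS. Of the NOTCH2 H3K36me3 intervals, 8 have a copy elsewhere. GFI1, DLL4 and ATOH1 thus had H3K4me3 past the limits at the TSS and no H3K36me3 interval in the body. The share of all coding genes with this combination was not counted, so whether it is unusual cannot be said here. Over the gene and the 10 kb around it, 65.9% of coding genes had an H3K36me3 interval, and GFI1, DLL4 and ATOH1 had none. These genes are 13.9, 9.7 and 2.2 kb long. None of the 26 H3K36me3 intervals passed the limits, and their fold enrichments lay between 2.18 and 4.32.

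**Figure D5:**
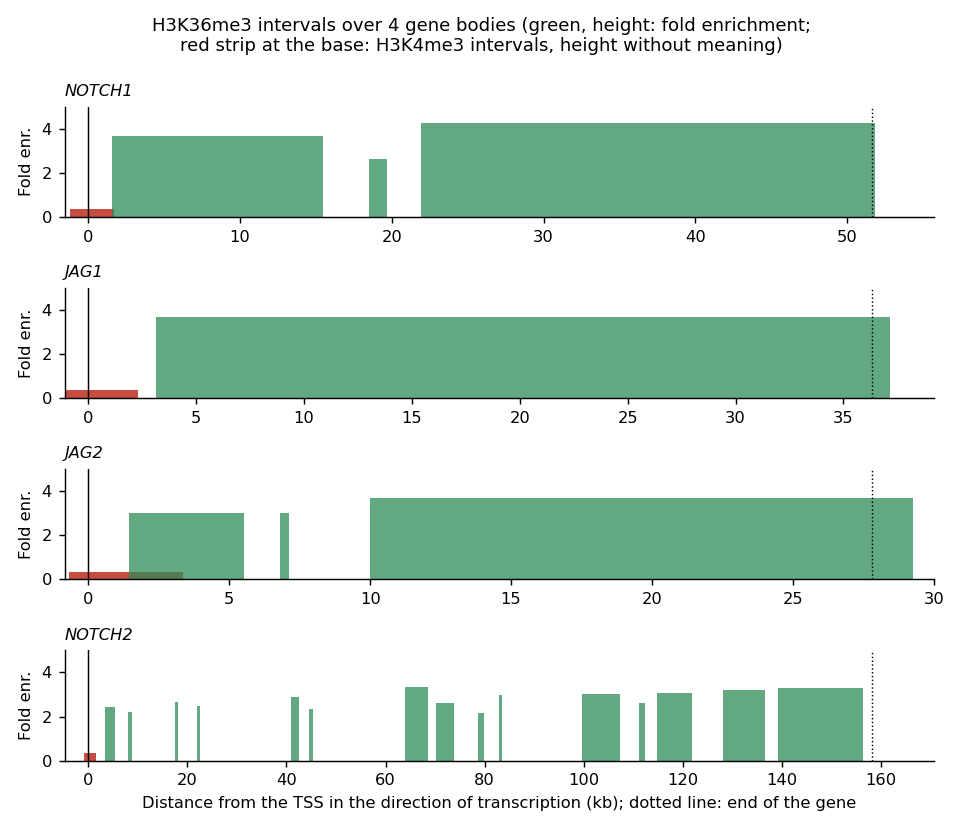
H3K36me3 intervals (green, height gives the fold enrichment) and H3K4me3 intervals (red strip at the base, with no height scale) by distance from the TSS in kb for NOTCH1, JAG1, JAG2 and NOTCH2. NOTCH1 (86.9% of the body) and JAG1 (91.3%) are covered to just past the dotted gene end, and NOTCH2 (30.6%) is covered in 15 pieces. Shares are of the annotated gene, which at NOTCH2 begins upstream of the TSS, and 8 of its pieces have a copy elsewhere.

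CTCF intervals at these genes were examined for the 12-base core consensus of the CTCF motif on both strands. An exact match was present in 0 of the 19 intervals, beside 15.7% of all CTCF intervals. With 1 mismatch allowed, 9 of the 19 matched, beside 52.9% of all. Among those past the limits, 7 of 11 matched with 1 mismatch, beside 65.9% (95% Wilson interval 65.3% to 66.5%, counting error only). The following sequences show 1 such match per gene, with the 12 bases in capitals and 20 bases on either side, read 5′ to 3′ on the strand of the match.
DLL4, 12686 bp downstream of the TSS, in no annotated gene, hg19 chr15:41234204-41234255, plus strand: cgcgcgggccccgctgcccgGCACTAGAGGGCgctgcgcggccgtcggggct
NOTCH1, 57231 bp downstream of the TSS, in no annotated gene, hg19 chr9:139383238-139383289, plus strand: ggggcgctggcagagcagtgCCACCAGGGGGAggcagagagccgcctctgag
NOTCH2, 120839 bp downstream of the TSS, intronic, hg19 chr1:120491406-120491457, plus strand: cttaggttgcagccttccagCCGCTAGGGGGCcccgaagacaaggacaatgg
JAG1, 527 bp upstream of the TSS, hg19 chr20:10655143-10655194, minus strand: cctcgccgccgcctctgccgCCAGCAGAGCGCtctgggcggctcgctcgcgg
JAG2, 1150 bp downstream of the TSS, intronic, hg19 chr14:105633932-105633983, minus strand: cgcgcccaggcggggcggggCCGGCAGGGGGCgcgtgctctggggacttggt
The match at DLL4 lay 33 bp from the centre of its interval and that at NOTCH1 48 bp, while that at JAG1 lay 279 bp and that at JAG2 644 bp away. No match with 1 mismatch was found in the CTCF intervals of HES1 or GFI1, nor in the DLL4 intervals at the TSS and at exon 11, and these letters say nothing more about the protein.

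Other genes of the pathway gave the setting. Of 48 further genes, H3K4me3 passed the limits within 1 kb of the TSS at 30, beside 59.1% of all coding genes. H3K9Ac passed at 30 (58.5% of all), H3K4me1 at 29 (49.1%), CTCF at 4 (13.6%), H3K27me3 at 1 (1.22%) and H3K36me3 at 0 (0.298%). The counts for H3K4me3 and H3K9Ac lay close to the share of all genes. By class, H3K4me3 passed at 15 of 17 genes of receptor cleavage, glycosylation and trafficking (highest at RFNG, 50.4), 5 of 6 of the nuclear complex (MAML1, 34.8) and 7 of 9 other targets (HES4, 35.5). It passed at 1 of 4 other receptors and ligands (NOTCH3, 22.8) and 2 of 12 other secretory lineage genes (the higher of them SOX9, 30.6). The 1 gene with H3K27me3 past the limits was HEY1, from the class of other targets. Its fold enrichments were 7.54 for H3K27me3 and 18.4 for H3K4me3 at the same TSS. In the secretory lineage, ATOH1 and GFI1 thus had H3K4me3 past the limits at the TSS while SPDEF and 10 of the 12 further genes did not.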

How the data were processed

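PIXUL-ChIP-seq libraries of HCT116 cells, 1 per mark, were analysed from the lists of intervals that the authors deposited for 6 of 7 libraries, and H3K27Ac was not analysed here. Per the methods, the authors used BWA 0.7.12 for alignment to hg19, and MACS2 in its broad mode (cutoff 0.1) for the peaks. The submitters' processing notes name MACS 1.4.2, SAMtools 0.1.19 and bcl2fastq 2.20.0.442. The fold enrichment that the authors deposited is a linear ratio to the background of the caller. The authors also deposited a −log10 q-value and a −log10 p-value for each interval as a whole. The fold enrichment is likewise 1 value per interval, and no comparison was adjusted for interval width. No read counts are used, so depth is unknown. Intervals were called per library, and replicates were not pooled.

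Genes were taken from GENCODE 44 on hg19 with the TSS of the canonical transcript. An overlap of 1 bp counted. The limits of the methods were applied as given for histone marks, and CTCF was given those of the other marks. Background shares were computed over 20162 coding genes. Promoter medians and ranks are over intervals past the limits that come within 1 kb of a coding TSS. Copies were searched with minimap2 2.31. Sequences were read with pyfaidx 0.9.0.4 from hg19, together with samtools 1.23.1, matplotlib 3.10.9, scipy 1.17.1, pandas 2.3.3, numpy 2.4.6 and Python 3.11.15. Tested on simulated data, the overlaps were recovered: in 2000 windows, all 600 planted overlaps were found.

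The genes and lists were chosen with earlier results of these data known. The text names the 10 genes, any gene whose TSS lies in or near their intervals, the gene of each pathway class with the highest H3K4me3 at its TSS, and any pathway gene with H3K27me3 past the limits there. With 1 library per mark, no test was made. Other limits, flanks, TSS windows and overlaps were tried.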

Additional observations from a re-analysis of the deposited data

How the results depend on the processing

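Of 223 recomputed values, 179 stayed within 1.5 times of the reported one and 44 did not. No paired analysis was possible because no mark has more than 1 library. Under the limits of the methods, and with their fold limit multiplied by 1.5, the genes with an interval in the window became 0 for H3K36me3 (from 6) and 2 for H3K27me3 (from 4). The intervals became 12 for H3K9Ac (from 21), 0 for H3K36me3 (from 26), 2 for H3K27me3 (from 4) and 11 for CTCF (from 19), and by gene 10 at NOTCH1, 6 at NOTCH2, 4 at JAG2 and 5 at HES1. A q-value below 0.01 left 10 H3K36me3 intervals and 13 at NOTCH2.

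A flank of 50 kb gave 44 intervals of H3K9Ac, 61 of H3K4me1 (from 29), 42 of H3K36me3, 18 of H3K27me3 and 42 of CTCF, and 36 at NOTCH1, 28 at DLL1, 32 at DLL4, 23 at JAG1, 28 at JAG2, 26 at HES1, 7 at ATOH1 and 8 at SPDEF, as a wider window takes in more. Without a flank, DLL4 had 7 intervals, HES1 5 and SPDEF 1. With at least 50% of the interval inside the window, SPDEF had 2. Without the intervals that have a copy, an alternative chosen after seeing the data, NOTCH2 had 9. At the TSS itself, 1 gene had H3K27me3 (DLL4, since that of ATOH1 begins downstream) and 2 had CTCF. Among all deposited intervals, 10 of the 48 other pathway genes had H3K27me3 at the TSS (from 1). The share of all coding genes at this setting was not counted. The H3K27me3 list holds 55270 intervals, of which 1552 passed the limits, so the 10 cannot be read as many or few. With 1 mismatch, 9 CTCF intervals held the core (from 0). Merging intervals, a TSS window of 5 kb and any coding TSS of the gene moved no count by over 1.5 times.

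With 1 library per mark and unknown depth, an interval that was not called does not show that the mark is absent.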
